A study of Mus musculus with 82 samples.

Results

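Integrins, cadherins and claudins are the receptors and junction proteins through which cells hold on to matrix and to each other. This gene set was taken from the gene count tables by symbol: integrin alpha chains, integrin beta chains 1 to 8, numbered cadherins and claudins, with the platelet integrin chains Itga2b and Itgb3 left out. The rule found 81 of 55376 rows, of which 17 were integrin alpha chains, 7 integrin beta chains, 23 cadherins and 34 claudins. Of these, 79 were protein-coding genes and 2 were claudin pseudogenes (Cldn25-ps and Cldn34-ps). The rule reads symbols and no measured value.

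An integrin is a pair of one alpha and one beta chain, and the pair decides the ligand: alpha 4 with beta 1 or beta 7 binds VCAM1 and fibronectin, alpha 6 with beta 1 binds laminin, and the alpha chains Itgal, Itgam, Itgax and Itgad pair with beta 2 on leukocytes. Cadherins join like cells through calcium-dependent contacts and are anchored to actin by catenins. Claudins form the seal and the ion pores of tight junctions in epithelium and endothelium. In bone marrow, integrins are known for holding hematopoietic stem cells (HSCs) in their niche and for homing after transplantation, whereas most cadherins and claudins are known from solid tissues.

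The study compared the epigenome and transcriptome of HSCs from young and old mice. HSCs were sorted from bone marrow of wild-type male C57BL/6J mice as lineage-, Sca-1+, c-kit+, CD34-, Flk2-, CD150+ cells. RNA-seq covered 4 libraries of young HSCs (YHSCs), made from pooled mice, and 8 libraries of old HSCs (OHSCs), made from individual mice. OHSCs were also transduced with a lentivirus carrying a control shRNA or 1 of 2 shRNAs (shRNA1, shRNA2) against the shorter variant of Btaf1, a TATA-binding protein associated factor, and were sequenced after culture or after transplantation and re-sorting from pooled recipients. The cultured cells were sorted for GFP, which the virus carries. The transplanted cells were re-sorted from young female recipients as GFP+ donor cells by another gate (lineage-, Sca-1+, c-kit+, CD48-, CD150+). Each shRNA had 2 libraries in each of these experiments. Common myeloid (CMP), granulocyte-macrophage (GMP) and megakaryocyte-erythroid (MEP) progenitors of young mice had 2 libraries each. H3K27ac, a mark of active promoters and enhancers, was measured by ChIP-seq in 2 YHSC and 2 OHSC libraries, and H3K4me3 and H3K27me3, marks of active and of Polycomb-silenced promoters, are described in 2 YHSC libraries each.

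Gene counts summed to 20475764 to 24122404 in the YHSC libraries, 22175623 to 24654742 in the OHSC libraries, 37292602 to 42737054 in the shRNA libraries and 33177394 to 36510850 in the progenitor libraries. Levels are given as counts-per-million (CPM) of all gene counts, and levels are compared between genes as CPM per kilobase of exon. In bulk samples, fewer cells of a type and less RNA per cell cannot be told apart, and the p-values measure the spread between libraries. In the age comparison this is the spread between pools of mice for YHSCs and between individual mice for OHSCs. HSC, shRNA and progenitor libraries came from separate experiments, so their levels are set side by side without a test. HSC markers summed to 5395 to 5460 CPM in YHSCs and 5012 to 5488 CPM in OHSCs, and no HSC marker was without a read in either. Btaf1 counts sum both variants and so do not check the knockdown of one variant. They were 137 and 141 CPM in the cultured controls against 110 to 119 CPM in the 4 cultured shRNA libraries, and 161 and 165 CPM in the transplanted controls against 118 to 139 CPM in the transplanted shRNA libraries.

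A few integrin chains made up most of the adhesion receptor mRNA of HSCs. In YHSCs, 33 of the 81 genes were above a mean of 1 CPM, and these were 13 of 17 integrin alpha chains, 6 of 7 beta chains, 8 of 23 cadherins and 6 of 34 claudins. Per kilobase of exon, Itgb1, the beta chain shared by most matrix-binding integrins, led in YHSCs with 87.4 ± 0.361 CPM per kb (SD, n = 4). Itga6, the laminin receptor chain CD49f, followed with 29.7 ± 1.2 and Itga5, the fibronectin receptor chain, with 23.7 ± 1.43 CPM per kb. Itga4 (14.0 ± 0.566), Cldn12 (13.9 ± 0.828) and Itgb2 (13.9 ± 1.17 CPM per kb) came next, and these 3 did not differ beyond their spread. Cldn12 was thus the leading claudin in YHSCs.

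The order differed between the groups, which were set side by side without a test. In OHSCs, Itgb1 again led with 92.7 ± 2.68 CPM per kb (SD, n = 8), and Cldn5, the claudin that seals endothelial junctions, stood second with 48.0 ± 6.88, next to Itga6 with 45.8 ± 2.41 CPM per kb. Cldn5 and Itga6 did not differ beyond their spread there. In CMPs, Itgal followed Itgb1, with 24.7 against 82.5 CPM per kb, and in GMPs Cldn15 followed Itgb1, with 44.7 against 68.4 CPM per kb. In MEPs, Cldn13 led with 235 CPM per kb, ahead of Itgb1 with 103 CPM per kb.

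Fewer of these genes were detected in the libraries made from cultured, transplanted or progenitor cells. Only 3 of the 81 genes had no read in any YHSC library and 2 in any OHSC library, and 35 had none in the cultured controls, 38 in the transplanted controls, 44 in CMPs, 47 in GMPs and 50 in MEPs. The same held over all 21782 protein-coding genes, of which 738 had no read in YHSCs and 7177 had none in CMPs. The labels name one library kit for HSCs and progenitors and another for the cultured shRNA cells, the study's methods differ from the labels for HSCs, and the part of the kit was not tested. Levels far below 1 CPM in the YHSC and OHSC libraries are therefore given without comparison to the other experiments. In MEPs none of the 23 cadherins reached a mean of 1 CPM, and 21 of them had no read.

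**Figure D1:**
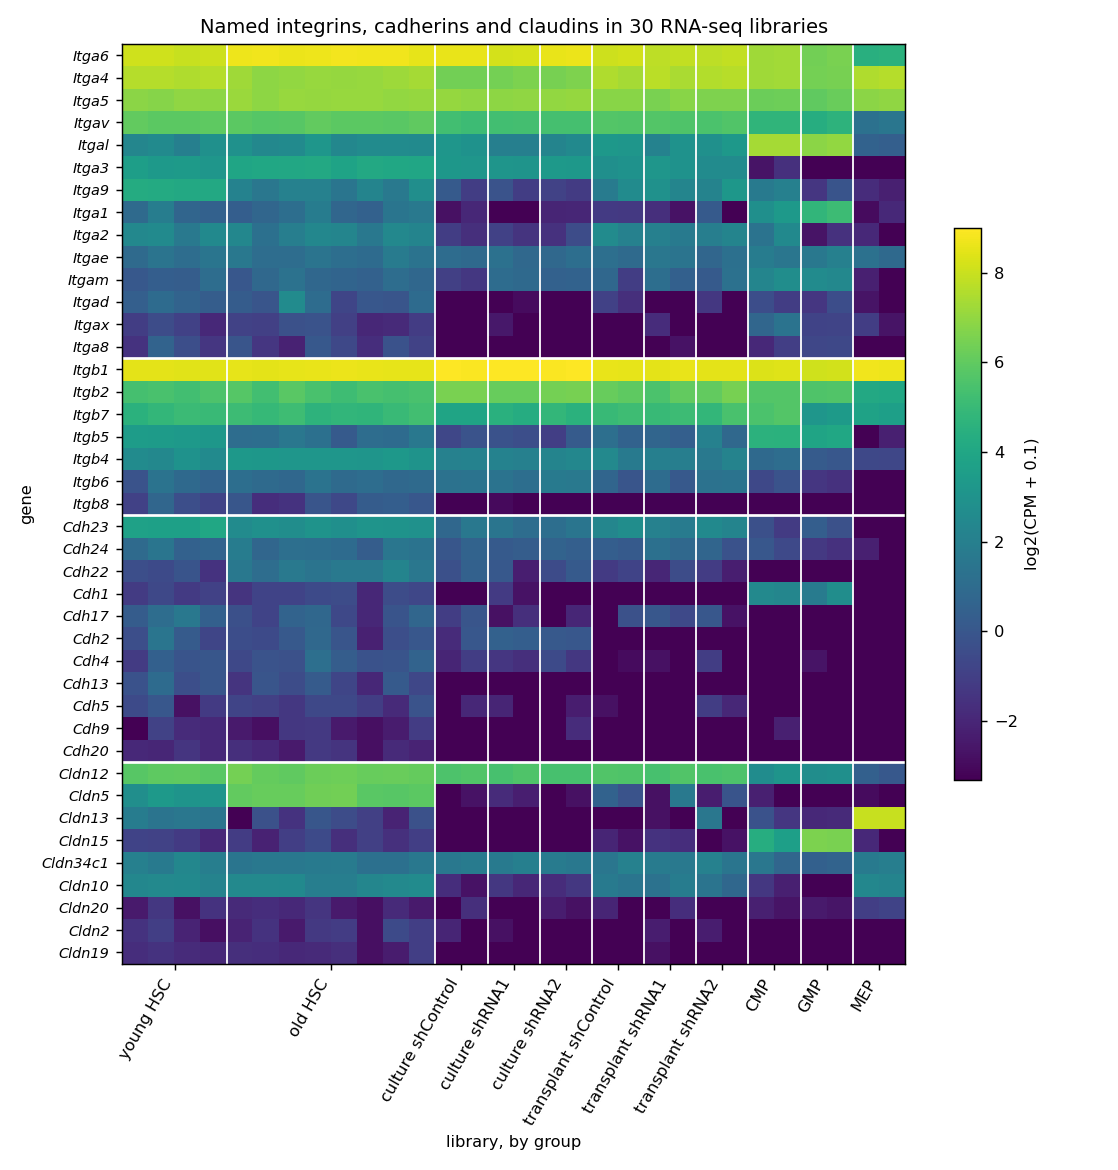
Levels of the 41 genes named by rule (rows) in the 30 RNA-seq libraries (columns, grouped by cell and treatment), as log2(CPM + 0.1). Itgb1, Itga4 and Itga5 are high in every library, whereas Cldn5 is at 6.65 CPM or more only in the 12 YHSC and OHSC libraries and Cldn13 is at 248 and 254 CPM in the 2 MEP libraries and at 3.47 CPM or less elsewhere.

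Old against young HSCs was tested across 21522 genes. A gene was called when it changed by more than 1.5-fold and its adjusted p was under 0.05. Of the 48 integrin, cadherin and claudin genes that passed the filter on low counts, 4 were higher and 4 were lower in OHSCs, or 8.33% in each direction, beside 4.69% of all genes tested for higher and 2.83% for lower. The higher genes were Cldn5, Cdh22, Itga3 and Itga6, and the lower genes were Itgb5, Itga9, Cldn13 and Cdh23. Integrins, cadherins and claudins each had members in both directions. The median log2 fold change was -0.02 over the 48 genes and -0.01 over all genes tested, and 33 genes were too low to test. Without the filter on low counts 4 were higher and 7 were lower.

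Cldn5 rose most among the 4 higher genes. It stood at 6.65, 10.2, 8.10 and 8.37 CPM in the YHSC libraries and at 56.3 (lowest), 68.0 (median) and 82.2 CPM (highest) in the OHSC libraries. Every OHSC library was far above every YHSC library. The log2 fold change was 3.07 (SE 0.13), with an adjusted p of 6.64e-11 by edgeR's quasi-likelihood test.

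Itga6 started from a high level and rose in every old mouse. It stood at 277, 277, 254 and 264 CPM in YHSCs and at 370, 419 and 445 CPM (lowest, median, highest) in OHSCs. The groups did not overlap, and the log2 fold change was 0.67 (SE 0.04, adjusted p = 5.92e-11). Itga3, the other laminin-binding alpha chain among the 4, stood at 11.8, 9.67, 10.5 and 8.91 CPM in YHSCs and at 14.1, 16 and 17.4 CPM in OHSCs. Its groups did not overlap either, and its log2 fold change was 0.69 (SE 0.09, adjusted p = 2.79e-06).

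Cdh22, a classical cadherin known from brain, was near the detection limit in YHSCs, at 0.669, 0.586, 0.829 and 0.249 CPM. In OHSCs it stood at 2.01 (lowest), 3.03 (median) and 4.69 CPM (highest), again with no overlap. The log2 fold change was 2.42 (SE 0.27, adjusted p = 2.96e-07).

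Among the lower genes were a beta and an alpha chain of matrix receptors. Itgb5, which pairs with alpha v to bind vitronectin, stood at 11.2, 10.9, 9.76 and 9.12 CPM in YHSCs and at 1.02, 2.06 and 2.97 CPM (lowest, median, highest) in OHSCs. Itga9, which pairs with beta 1 and binds tenascin and VCAM1, stood at 18.9, 18.5, 17.5 and 17.0 CPM in YHSCs and at 2.70, 4.20 and 6.69 CPM in OHSCs. Neither gene overlapped between the groups. The log2 fold changes were -2.22 (SE 0.17, adjusted p = 6.31e-10) for Itgb5 and -2.09 (SE 0.16, adjusted p = 2.17e-08) for Itga9. Itgav, the alpha v chain that pairs with Itgb5, overlapped between the groups at 58.8 to 66.8 CPM in YHSCs and 54.7 to 66.6 CPM in OHSCs.

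Cldn13, a mouse claudin, stood at 3.47, 2.59, 2.90 and 2.61 CPM in YHSCs and at 0 (lowest), 0.513 (median) and 0.894 CPM (highest) in OHSCs. All OHSC libraries lay below all YHSC libraries, and the log2 fold change was -2.56 (SE 0.42, adjusted p = 1.86e-04). Cdh23, the large cadherin of hair cell tip links, stood at 13.2, 12.6, 12.7 and 16.1 CPM in YHSCs and at 5.97, 7.39 and 8.15 CPM in OHSCs. It fell by 0.86 on the log2 scale (SE 0.10, adjusted p = 5.18e-07) with no overlap. Cdh23 shares 25834 bases with Vsir on the opposite strand, and since the sources used here do not give the strand setting of the counting, reads of the pair may be mixed.

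**Figure D2:**
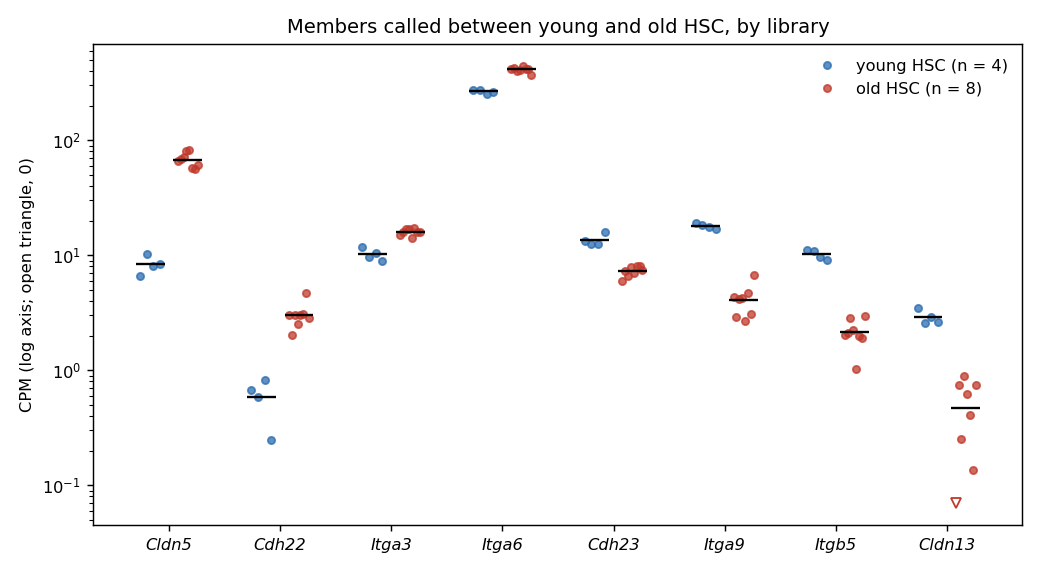
CPM (log axis) of the 8 genes called between YHSCs (4 libraries, blue) and OHSCs (8 libraries, red), 1 point a library, with a line at the group mean and an open triangle for a library at 0. For each gene the 2 groups do not overlap, and Cldn5 is at 6.65 to 10.2 CPM in YHSCs against 56.3 to 82.2 CPM in OHSCs.

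Some of the highest chains of HSCs moved by less than the fold threshold with an adjusted p below 0.05. Itga4 was at 184 to 200 CPM in YHSCs and 121 to 161 CPM in OHSCs, a log2 fold change of -0.45 (SE 0.06, adjusted p = 2.01e-06). Itgb1 was at 355 to 358 CPM in YHSCs and 362 to 398 CPM in OHSCs, a log2 fold change of 0.13 (SE 0.03, adjusted p = 0.0112). Both pairs of groups were separate, by little for Itgb1 (358 against 362 CPM) and by more for Itga4 (184 against 161 CPM). Itgb4 (0.54), Cldn12 (0.36), Itga5 (0.23) and Cldn34c1 (-0.48) were the other 4 with an adjusted p below 0.05, all given as log2 fold changes. Cldn34 genes are a family of near-identical copies, so the count of any one of them is uncertain. At an unadjusted p below 0.05, 16 of the 48 genes differed, 8 in each direction.

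Markers of other cells differed between the groups too. Erythroid markers summed to 217 to 287 CPM in YHSCs and 58.9 to 139 CPM in OHSCs, with Car1, Ermap and Klf1 among the lower genes and Hba-a1 higher. Cldn13, high in MEPs below, fell beside them. B cell markers summed to 125 to 255 CPM in YHSCs and 38.2 to 204 CPM in OHSCs, with 6 of 8 genes lower. Megakaryocyte and platelet markers summed to 1840 to 1883 CPM in YHSCs and 2441 to 2793 CPM in OHSCs, with 4 of the 9 tested higher, among them Itga2b, and 1 lower. Granulocyte and monocyte markers (150 to 280 against 313 to 402 CPM) and T and NK cell markers (39.1 to 43.1 against 79 to 104 CPM) had higher sums in OHSCs. Of the 7 granulocyte and monocyte genes tested 1 was called higher (Prtn3) and 1 lower (Mpo), and of the 5 T and NK genes 1 was higher (Klrb1c). No marker of these lists was without a read in either group. Their part in the changes of the 8 genes was not tested.

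Endothelial markers were read beside Cldn5. The 8 of them that are not cadherins or claudins summed to 628 to 661 CPM in YHSCs and 600 to 652 CPM in OHSCs, and all 8 had reads in both groups. Of the full list of 10 genes 2 were higher, Cldn5 itself and Kdr (log2 fold change 1.17). The endothelial cadherin Cdh5 stood at 0.046 to 0.928 CPM in YHSCs and 0.18 to 0.787 CPM in OHSCs. The groups overlapped for Cdh5, which was below 1 CPM in all 12 libraries. The part of endothelial cells in the change of Cldn5 was not tested.

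The partners and ligands of these receptors were taken from fixed lists, whose counts stand beside 4.69% of all genes for higher and 2.83% for lower. Of 38 integrin partners (adaptors, kinases and tetraspanins), 1 was higher, Fermt2 (kindlin-2, which activates integrins), with a log2 fold change of 1.34 (SE 0.20, adjusted p = 2.16e-05), and none was lower. Of 25 integrin ligands tested, 3 were higher and 5 were lower. The laminin alpha chain genes Lama5 (log2 fold change 1.64) and Lama4 (0.97) rose, with Vwf (1.2), whereas the basement membrane genes Col4a1 (-0.92), Col4a2 (-1.19), Lamb2 (-0.64) and Nid1 (-1.91) and the matrix gene Thbs1 (-0.66) fell. Of 21 catenins and cadherin partners 1 rose, the desmosomal Pkp2 (0.71). Of 23 tight junction partners 2 rose, the junctional adhesion molecule Jam2 (1.81) and the tricellular junction protein Lsr (1.05), and none fell. The median log2 fold change of the tight junction partners was 0.30.

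H3K27ac was compared at 104 peaks assigned to 49 of the 81 genes, 37 of them at transcription start sites (TSS), 66 in gene bodies and 1 at a transcript end. A peak was called where the ratio of group means passed 1.5 either way and every OHSC library differed from every YHSC library by at least 1.2 times in that direction, with no test. By this rule 10 peaks were higher and 9 were lower in OHSCs, beside 9.11% and 2.27% of all 39557 peaks. At TSS, 2 of 37 peaks were higher and 3 lower, beside 2.71% and 1.1% of all TSS peaks. The median log2 ratio was 0.05 over the 104 peaks and 0.06 over all peaks.

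The higher TSS peaks lay at the claudin genes Cldn5 and Cldn2. The Cldn5 peak (mm10, chr16:18776975-18778564, over most of the gene at chr16:18776847-18778262) had a signal of 1.49 and 1.37 in YHSCs and 3.20 and 3.16 in OHSCs, a ratio of 2.23. Cldn5 was the only gene with both a called TSS peak and a called mRNA in the same upward direction. The Cldn2 peak (chrX:139799919-139800672) had 0.464 and 0.481 in YHSCs and 1.11 and 1.10 in OHSCs, a ratio of 2.34, while Cldn2 mRNA was at 0.0415 to 0.391 CPM in YHSCs and 0.0406 to 0.586 CPM in OHSCs.

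The lower TSS peaks lay at Itga9, Itgb8 and Cdh9. The Itga9 peak (chr9:118606663-118607508) had 2.57 and 1.98 in YHSCs and 1.58 and 1.25 in OHSCs, a ratio of 0.623, beside the fall of Itga9 mRNA. The Itgb8 peak (chr12:119237790-119239420) had 2.20 and 1.60 against 1.2 and 1.22, a ratio of 0.638. The Cdh9 peak (chr15:16728434-16729025) had 2.10 and 1.31 against 1.05 and 1.07, a ratio of 0.620. Itgb8, the beta chain that activates TGF-beta, and Cdh9 were both low as mRNA, with overlapping groups: Itgb8 was at 0.418 to 1.56 CPM in YHSCs and 0.205 to 1.17 CPM in OHSCs, and Cdh9 at 0 to 0.44 CPM and 0.0406 to 0.35 CPM.

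The 250 bases before the RefSeq start (GRCm38.p6, the assembly of mm10) are shown for 4 genes with a called TSS peak at or near that start, in gene orientation and 5′ to 3′. Capitals mark the letters of a searched motif.
Cldn5: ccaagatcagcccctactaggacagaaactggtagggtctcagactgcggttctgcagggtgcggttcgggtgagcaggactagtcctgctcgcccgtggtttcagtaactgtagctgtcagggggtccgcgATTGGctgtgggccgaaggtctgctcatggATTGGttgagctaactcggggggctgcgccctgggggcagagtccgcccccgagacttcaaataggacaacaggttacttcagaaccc
Cldn2: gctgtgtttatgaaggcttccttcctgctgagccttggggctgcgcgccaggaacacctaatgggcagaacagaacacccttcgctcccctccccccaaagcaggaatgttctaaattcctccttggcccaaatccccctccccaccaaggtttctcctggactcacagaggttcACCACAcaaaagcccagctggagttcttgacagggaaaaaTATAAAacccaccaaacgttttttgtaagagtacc
Itgb8: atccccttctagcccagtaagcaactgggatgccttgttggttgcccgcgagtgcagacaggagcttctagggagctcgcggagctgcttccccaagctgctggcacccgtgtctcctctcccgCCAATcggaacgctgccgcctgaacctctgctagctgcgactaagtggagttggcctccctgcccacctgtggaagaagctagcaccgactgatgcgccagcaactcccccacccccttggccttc
Cdh9: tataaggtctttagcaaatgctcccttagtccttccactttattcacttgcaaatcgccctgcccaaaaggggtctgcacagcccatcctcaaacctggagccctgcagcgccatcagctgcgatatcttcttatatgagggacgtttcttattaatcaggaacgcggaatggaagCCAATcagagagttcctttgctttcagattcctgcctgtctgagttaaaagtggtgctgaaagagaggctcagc
These windows are chr16:18776597-18776846 (plus strand), chrX:139800558-139800807 (plus), chr12:119238277-119238526 (minus) and chr15:16728665-16728914 (plus). The Itgb8 and Cdh9 starts lie inside their peaks, whereas the Cldn5 and Cldn2 starts lie 128 and 136 bases outside theirs. The Itga9 entry starts 104184 bases from its peak and is not shown. The motifs searched on both strands were the TATA box with the letters TATAAA, the box named for its letters CCAAT, a site for GATA factors with AGATAA, a site for ETS factors with CCGGAA and a site for RUNX factors with TGTGGT. Cldn5 holds CCAAT on the minus strand at 118 to 114 and at 88 to 84 bases before the start, and no TATAAA. Cldn2 holds TATAAA at 35 to 30 bases and TGTGGT on the minus strand at 75 to 70 bases. Itgb8 holds CCAAT at 126 to 122 bases and Cdh9 at 74 to 70 bases before the start.

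Over the 69 RefSeq promoter entries of 57 integrin, cadherin and claudin genes, TATAAA was found in 2 (2.9%), beside 12.4% of all 32851 promoters of the same length. CCAAT was found in 33.3% against 33.8%, AGATAA in 8.7% against 9.99%, CCGGAA in 10.1% against 12% and TGTGGT in 11.6% against 14.0%. A match describes the letters in the window and not a bound factor.

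In gene bodies, 8 peaks were higher and 6 were lower, beside 12% and 3.03% of all gene body peaks. The highest ratio was at Itgal (chr7:127313637-127314394), with 0.659 and 0.362 in YHSCs and 1.49 and 1.70 in OHSCs, a ratio of 3.12, while Itgal mRNA overlapped between the groups at 3.96 to 7.13 and 5.13 to 8.67 CPM. The lowest ratio was at Itgb5 (chr16:33832911-33833445), with 2.14 and 1.44 in YHSCs and 0.714 and 0.669 in OHSCs, a ratio of 0.387. At the Itgb5 TSS itself (chr16:33829518-33830689) the signals overlapped, at 1.76 and 0.949 against 1.25 and 1.14. Itga9 and Cdh23 each had gene body peaks called in both directions. The other higher gene body peaks lay in Cdh13, Cdh22, Cdh4, Cldn15 and Cldn19, and the other lower ones in Cdh20, Itga2 and Itgae. With limma on log2(signal + 0.5) in place of the rule, 3 peaks were left: Cldn5 (adjusted p = 0.00272) and Itgal (adjusted p = 0.0101) higher and the gene body peak of Itgb5 (adjusted p = 0.0187) lower. Without YHSC library 1 the rule gave 21 higher and 5 lower peaks.

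For Itga6 and Itga3, 2 of the other genes with changed mRNA, TSS signals were close between the ages. Itga6 had 3.75 and 2.99 in YHSCs and 3.96 and 3.52 in OHSCs, and Itga3 had 1.97 and 1.97 against 2.23 and 2.03. The Cdh22 TSS peak had 1.04 and 0.636 against 1.07 and 1.2, a ratio of 1.35, with both OHSC libraries above both YHSC libraries. None of these 3 met the rule. Cdh23 and Cldn13 had no TSS peak of H3K27ac in the list.

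**Figure D3:**
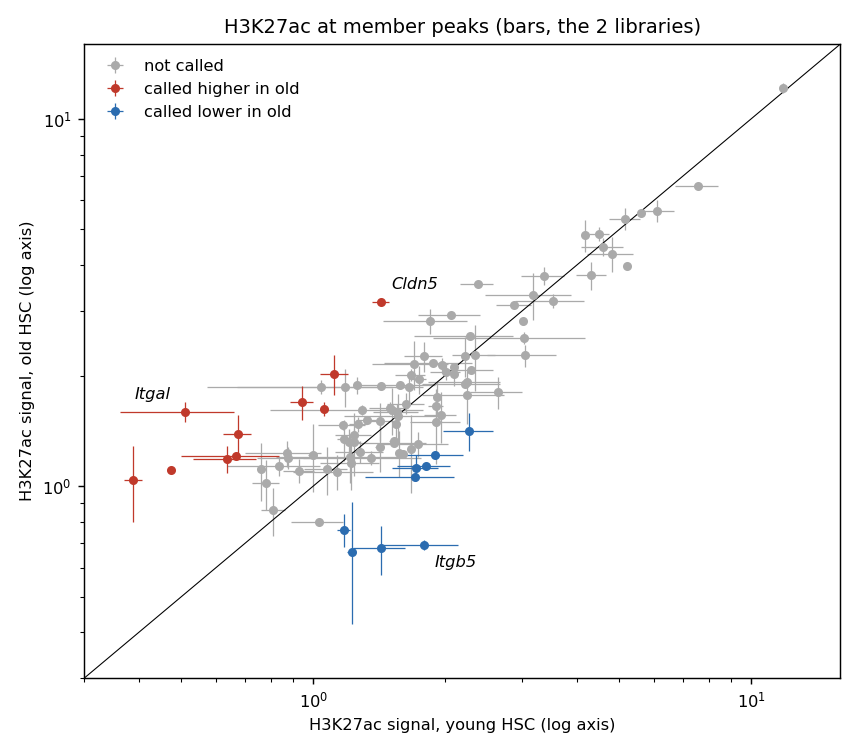
H3K27ac signal at the 104 peaks, mean of 2 YHSC libraries (x, log axis) against mean of 2 OHSC libraries (y, log axis), with bars from the lower to the higher library and a line of equality. Most peaks lie by the line, the 10 called higher (red) include Cldn5 at 1.43 against 3.18, and the 9 called lower (blue) include the gene body peak of Itgb5 at 1.79 against 0.692.

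Promoter marks in YHSCs were read from the listed TSS peaks. Of the 79 protein-coding genes, 30 (38.0%) had TSS peaks of both H3K4me3 and H3K27me3, beside 16.9% of 21782 protein-coding genes, and 10 (12.7%) had H3K4me3 alone, beside 46.5%. H3K27me3 alone marked 12 (15.2%, beside 13.2%) and neither marked 27 (34.2%, beside 23.3%). These shares are a description. H3K27me3 peaks are broad and their signal is low, and with a signal of at least 1 required of each peak 7 genes had both marks, 33 had H3K4me3 alone, 1 had H3K27me3 alone and 38 had neither. The shares over all protein-coding genes were not taken with this minimum. Whether the set differs from all genes in these states is therefore not shown for it. With peaks of any signal, 13 of 23 cadherins had both marks and none had H3K4me3 alone, and with the minimum these were 2 and 11. Of 32 claudins, 16 had neither with peaks of any signal and 21 with the minimum.

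The mRNA level was read by mark, with peaks of any signal. Median levels in YHSCs were 13.9 CPM per kb for the 10 genes with H3K4me3 alone, 0.127 with both marks, 0.12 with H3K27me3 alone and 0.0861 CPM per kb with neither. Over all protein-coding genes the medians were 11.1, 0.228, 0.0828 and 0.0702 CPM per kb in the same order. The 10 genes with H3K4me3 alone were Itgb1, Itga6, Itga4, Itga5, Itgav, Itgb2, Cldn12, Itgb4, Itgal and Cldn34c1. At the Itgb1 TSS the H3K4me3 signal was 24.3 and 27.9 in the 2 libraries, whereas Itgal and Itgb2 had 1.88 and 2.19, and 3.20 and 3.38. Itgb7, at 23.6 to 33.6 CPM in YHSCs, had a TSS peak of neither mark. It had an H3K4me3 peak listed in the gene body, with a signal of 9.60 and 9.52.

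Of the 8 genes changed with age, 5 had TSS peaks of both marks in YHSCs (Itga9, Itgb5, Itga3, Cldn5 and Cdh22). At the TSS, 1 had H3K4me3 alone (Itga6) and 2 had neither (Cdh23 and Cldn13). In its gene body, Cdh23 had an H3K4me3 peak (chr10:60686058-60687819) with a signal of 13.4 and 11.5. An H3K27me3 peak with 0.685 and 0.700 lay over it. Cdh22 had the highest H3K27me3 signal of the 42 genes with a TSS peak of that mark, at 2.22 and 2.20, with H3K4me3 at 11.3 and 8.58. Cldn5 had H3K27me3 at 1.71 and 1.66 and H3K4me3 at 5.96 and 4.98. Itga9 had the lowest H3K27me3 signal of the 42, at 0.342 and 0.314. With a signal of at least 1 required, Itga9, Itgb5 and Itga3 had H3K4me3 alone, and Cldn5 and Cdh22 were left with both marks. Cldn6 and Cldn9 are neighbours that share a single H3K27me3 peak.

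**Figure D4:**
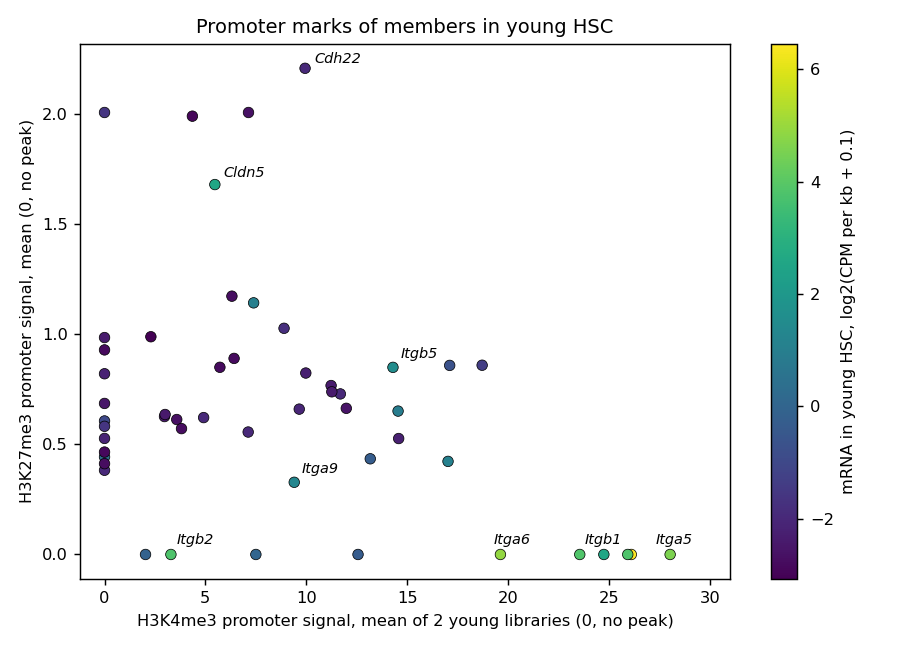
TSS signal of H3K4me3 (x) against H3K27me3 (y), means of 2 YHSC libraries, for the genes with a peak of either mark (0 where there is no peak), coloured by mRNA level as log2(CPM per kb + 0.1). The genes at the bottom right (Itgb1, Itga6, Itga5) are among the highest as mRNA, Cdh22 and Cldn5 carry high H3K27me3 with H3K4me3, and the column at the left has H3K27me3 alone.

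The shRNA comparisons ask what lowering the shorter Btaf1 variant does in OHSCs. Here 4 shRNA libraries were set against 2 control libraries, and a gene was called when it changed by more than 1.5-fold with an unadjusted p under 0.05. In cultured OHSCs, 29 of the 81 genes could be tested, and 2 were higher and 2 lower (6.9% each), beside 2.45% and 0.972% of 19763 genes. At an adjusted p below 0.05 there were 2 higher and 1 lower, beside 0.582% and 0.324%. The 3 were leukocyte integrin chains: Itgam and Itgb7 rose and Itgal fell.

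Itgam, the alpha chain of the complement receptor Mac-1, stood at 0.398 and 0.295 CPM in the cultured controls. It stood at 1.96 and 1.78 CPM with shRNA1 and at 1.34 and 1.39 CPM with shRNA2. All 4 knockdown libraries were above both controls, and the log2 fold change was 2.18 (SE 0.34, adjusted p = 0.00237). Itgam shares 55809 bases with the gene model Gm49368 on the same strand, so its count may be incomplete.

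Itgal, the alpha chain of LFA-1, stood at 8.91 and 7.62 CPM in the cultured controls, at 3.86 and 3.92 CPM with shRNA1 and at 4.69 and 5.76 CPM with shRNA2. All 4 knockdown libraries were below both controls, with a log2 fold change of -0.88 (SE 0.17, adjusted p = 0.0114). Itgb7, the gut-homing beta chain, stood at 14.8 and 14.8 CPM in the controls, at 22.6 and 19.9 CPM with shRNA1 and at 29.0 and 23.7 CPM with shRNA2. It was higher in all 4 knockdown libraries, with a log2 fold change of 0.67 (SE 0.14, adjusted p = 0.0198), and with shRNA1 alone it was 0.49, under the fold threshold.

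Cdh17, the liver-intestine cadherin, stood at 0.374 and 0.858 CPM in the cultured controls, at 0.0471 and 0.212 CPM with shRNA1 and at 0 and 0.146 CPM with shRNA2. It passed the unadjusted threshold of edgeR's quasi-likelihood test (log2 fold change -2.60, SE 0.79, adjusted p = 0.0990), but without control library 2 it did not. At an adjusted p below 0.05, no integrin, cadherin or claudin was called without control library 2. Without control library 1, 1 was higher and 0 lower, and without either shRNA2 library 1 was higher.

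Cldn5 and Itga6, higher in OHSCs than in YHSCs, were not called in culture. Cldn5 was at 0 to 0.188 CPM in all 6 cultured libraries and was too low to test. Itga6 stood at 387 and 391 CPM in the controls, at 297 and 305 CPM with shRNA1 and at 389 and 401 CPM with shRNA2. Only the shRNA1 libraries lay below the controls, and over both shRNAs the log2 fold change was -0.18 (SE 0.17, adjusted p = 0.732). The fixed lists were counted at the same thresholds, beside 2.45% of all genes for higher and 0.972% for lower. Of 35 integrin partners tested 2 were higher (Src, Parvb) and 2 lower (Cd82, Fermt2), of 22 ligands and 17 catenins and cadherin partners none was called, and of 19 tight junction partners 1 was higher (Ildr2).

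Erythroid markers summed to 223 to 225 CPM in the cultured controls, 138 to 141 CPM with shRNA1 and 165 to 169 CPM with shRNA2, with Tfrc called lower. Granulocyte and monocyte markers summed to 170 to 178, 199 to 201 and 246 to 253 CPM in the same order. T and NK cell markers summed to 54.6 to 56.2, 32.6 to 35.5 and 37.1 to 41.5 CPM, with Nkg7 called lower. Endothelial markers other than cadherins and claudins (345 to 361 against 407 to 455 CPM), dendritic cell and macrophage markers (44.0 to 45.6 against 52.8 to 58.3 CPM) and HSC markers (2330 to 2365 against 2483 to 2570 CPM) had higher sums in all 4 shRNA libraries than in both controls, and stromal markers (33.5 to 41.6 against 24.5 to 29.7 CPM) had lower ones. Of the 5 stromal genes tested, Lepr was called higher and Pdgfrb lower, and their median log2 fold change was 0.50. The part of these cells in the changes of Itgam, Itgal and Itgb7 was not tested.

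In transplanted OHSCs, none of 29 genes tested passed the fold and unadjusted p thresholds, beside 1.43% of 20350 genes for higher and 0.811% for lower. By the same thresholds 3 were lower with shRNA1 alone and 1 was higher with shRNA2 alone. At an adjusted p below 0.05 edgeR called 0% of all genes in either direction. Only Itga6 had an unadjusted p below 0.05. It stood at 267 and 284 CPM in the controls, at 218 and 237 CPM with shRNA1 and at 222 and 237 CPM with shRNA2. All 4 knockdown libraries were below both controls, with a log2 fold change of -0.28 (SE 0.06, adjusted p = 0.791), under the fold threshold. HSC markers summed to 4246 to 4342 CPM in the transplanted controls and 3913 to 4194 CPM in the 4 shRNA libraries, again without overlap, and none of the 10 was called. Erythroid markers (55.6 to 79.4 against 55.7 to 143 CPM) and granulocyte and monocyte markers (198 to 353 against 244 to 696 CPM) overlapped, with median log2 fold changes of 1.22 and 1.08 and Cebpe called higher. The part of these cells in the values of Itga6 was not tested. DESeq2 also called 0 of these genes. By the unadjusted rule, 3 genes were higher and 1 lower without control library 2, and 1 was higher without control library 1 or without shRNA1 library 2.

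None of the genes called in culture met the thresholds after transplantation. Itgam stood at 1.66 and 0.372 CPM in the controls and at 1.01 to 2.30 CPM with the shRNAs (log2 fold change 0.71, SE 0.57), and Itgal at 9.49 and 8.72 CPM against 4.30 to 9.32 CPM (-0.36, SE 0.26). Itgb7 stood at 32.1 and 36.2 CPM against 29.0 to 43.4 CPM (0.01, SE 0.16). The difference between the experiments was tested as an interaction. None of 33 genes reached an adjusted p below 0.05, beside 0.103% of 21443 genes for higher and 0.107% for lower, and DESeq2 called 0. At an unadjusted p below 0.05 there were 2, Itgb7 (log2 difference -0.65, SE 0.23, adjusted p = 0.397) and Cldn23 (-3.71, SE 1.27, adjusted p = 0.369), the latter named after its values were seen and at most 0.518 CPM in the 12 libraries. The effects in culture and after transplantation were therefore not shown to differ for any of these genes. Cldn5 stood at 1.38 and 0.798 CPM in the transplanted controls and at 0.0488 to 3.06 CPM with the shRNAs (log2 fold change -0.12, SE 1.25).

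**Figure D5:**
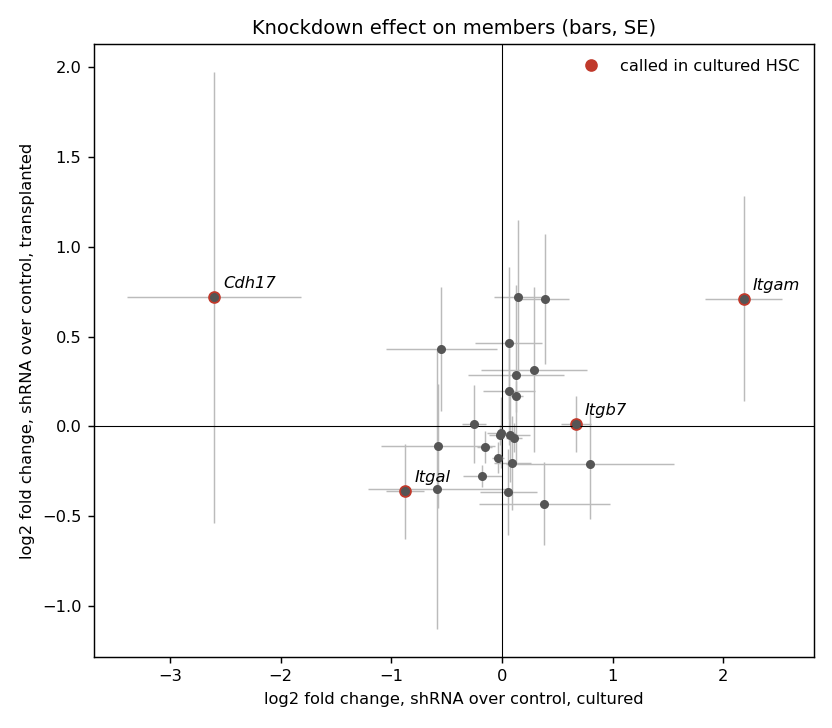
Log2 fold change of shRNA over control libraries in cultured (x) and transplanted (y) OHSCs for the genes tested in both, with bars of 1 SE. Red rings mark those called in culture (Itgam, Itgb7, Itgal, Cdh17), which lie at 2.18, 0.67, -0.88 and -2.60 on the x axis and at 0.71, 0.01, -0.36 and 0.72 on the y axis.

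Among the progenitors, most of the genes tested were lower in MEPs. The 3 comparisons came from a single fit of 6 libraries and share them in pairs. Of 30 genes tested, 4 were higher and 20 were lower in MEPs than in CMPs (13.3% and 66.7%), beside 17.5% and 29.2% of 18234 genes. The median log2 fold change was -2.88, or -2.68 with genes without a read in MEPs at their bound, beside -0.07 over all genes. GMPs and CMPs were closer, with 2 higher and 7 lower in GMPs, beside 6.24% and 10.5% of all genes, and a median of -0.03. Against GMPs, MEPs had 6 higher and 17 lower, beside 16.6% and 27.2%, and a median of -1.82.

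Erythroid and granulocyte markers followed the labels, and megakaryocyte markers did not. Erythroid markers summed to 7895 to 8347 CPM in MEPs against 390 to 394 CPM in CMPs and 202 to 220 CPM in GMPs. Granulocyte and monocyte markers summed to 57014 to 58217 CPM in GMPs, 16244 to 19592 CPM in CMPs and 35.8 to 63.5 CPM in MEPs. T and NK cell markers summed to 350 to 360 CPM in CMPs, 710 to 741 CPM in GMPs and 3.69 to 3.85 CPM in MEPs. In the same order, B cell markers summed to 290 to 302, 229 to 305 and 5.57 to 7.49 CPM. Dendritic cell and macrophage markers summed to 247 to 287, 50.0 to 64.5 and 23.5 to 24.8 CPM. Stromal markers summed to 92.2 to 107, 23.8 to 32.1 and 1.80 to 2.94 CPM. Megakaryocyte and platelet markers were low in MEPs, at 64.2 to 80.1 CPM against 763 to 785 CPM in CMPs, and 2 of those 10 genes had no read in MEPs. They were at 52.1 to 93.9 CPM in GMPs. Against GMPs, 4 of the 9 tested were higher and 3 lower in MEPs. The part of all these cell types in the changes of integrins, cadherins and claudins was not tested.

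Of the 6 claudins that passed the filter on low counts, 3 were higher and 2 lower in MEPs than in CMPs. The 3 were Cldn13, Cldn10 and Cldn20, which passed the filter through their MEP counts. Their direction thus follows largely from the filter and is not a result about claudins as a family. Itga5 was the other gene higher in MEPs than in CMPs. The 6 genes higher in MEPs than in GMPs were these 4 (Cldn13, Cldn10, Cldn20 and Itga5), Itga4 and Cldn34c1 (log2 fold change 1.23, SE 0.32). Cldn13 stood at 248 and 254 CPM in MEPs, 0.767 and 0.280 CPM in CMPs and 0.169 and 0.181 CPM in GMPs. It was below 1 CPM in all 4 other libraries, and the log2 fold change was 9 (SE 0.16, adjusted p = 2.23e-13) against CMPs and 10.36 (SE 0.19) against GMPs. Cldn10, a paracellular ion pore known from kidney, stood at 5.04 and 4.70 CPM in MEPs, 0.301 and 0.112 CPM in CMPs and 0 in both GMP libraries. It rose by a log2 fold change of 4.64 (SE 0.44, adjusted p = 1.11e-06) against CMPs and was at least 112-fold higher than in GMPs, from a floor of 3 counts over the group. Cldn20 reached 0.394 and 0.453 CPM in MEPs against 0.110 and 0.0561 CPM in CMPs (log2 fold change 2.41, SE 0.86, adjusted p = 0.0255). Cldn20 overlaps Tfb1m on the opposite strand by 660 bases, and its call was lost with DESeq2 (adjusted p = 0.0768), without the filter, and without any 1 of the 6 libraries.

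Itga5, Itga4 and Itgb1 were high in all 3 progenitors. Itga5 stood at 118 and 125 CPM in MEPs, 75.9 and 77.8 CPM in CMPs and 64.2 and 72.2 CPM in GMPs, a log2 fold change of 0.78 (SE 0.07, adjusted p = 3.74e-07) against CMPs. Itga4 stood at 187 and 202 CPM in MEPs, 154 and 155 CPM in CMPs and 85.4 and 88.0 CPM in GMPs. It was called higher in MEPs than in GMPs (1.06, SE 0.06) and lower in GMPs than in CMPs (-0.62, SE 0.06). Itgb1 stood at 423 and 416 CPM in MEPs against 330 and 343 CPM in CMPs, under the fold threshold.

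The leukocyte integrins that share beta 2 were compared next. Itgal stood at 161 and 164 CPM in CMPs, 118 and 129 CPM in GMPs and 1.35 and 1.25 CPM in MEPs, a log2 fold change of -6.85 (SE 0.10, adjusted p = 6.40e-15) against CMPs. Itgam stood at 4.79 and 6.42 CPM in CMPs, 6.00 and 5.21 CPM in GMPs and 0.113 and 0 CPM in MEPs (-6.43, SE 0.51, adjusted p = 1.03e-07). Both MEP libraries lay far below all 4 others for Itgal and Itgam. Itgb2 itself fell less, from 52.4 and 52.7 CPM in CMPs to 17.5 and 16.2 CPM in MEPs (-1.52, SE 0.09). Itgad had 2 counts in MEPs against 37 in CMPs, a ratio of CMP to MEP of 18.2 (95% counting interval 4.68 to 156).

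Other matrix receptor chains were lower in MEPs. Itgb5 stood at 24.5 and 23.7 CPM in CMPs, 14.6 and 16.2 CPM in GMPs and 0 and 0.113 CPM in MEPs (-8.53, SE 0.35, adjusted p = 1.43e-10). Itgav fell from 26.3 and 26.8 CPM in CMPs to 2.31 and 2.74 CPM in MEPs (-3.28, SE 0.16), and Itga6 from 152 and 155 CPM to 21.9 and 23.4 CPM (-2.65, SE 0.08). Both chains of the vitronectin receptor were thus low in the same libraries. Itga1, the collagen receptor chain, stood at 6.85 and 10.0 CPM in CMPs, 27.4 and 35.5 CPM in GMPs and 0.0282 and 0.170 CPM in MEPs. It was called higher in GMPs (2.12, SE 0.22) and lower in MEPs (-6.25, SE 0.43) than in CMPs. Itga1 shares 66649 bases with Gm49395 and 1832 bases with Pelo on the same strand.

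E-cadherin (Cdh1) was the only cadherin above a mean of 1 CPM in CMPs and in GMPs. It stood at 5.48 and 4.99 CPM in CMPs, 3.38 and 6.39 CPM in GMPs and 0 in both MEP libraries, where it was at least 124-fold lower than in CMPs and at least 114-fold lower than in GMPs. Cldn15, another ion pore claudin, stood at 20.3 and 12.5 CPM in CMPs, 96.7 and 93.3 CPM in GMPs and 0.169 and 0 CPM in MEPs. It was called higher in GMPs (log2 fold change 2.75, SE 0.26, adjusted p = 5.33e-04) and lower in MEPs (-7.42, SE 0.59) than in CMPs. Cldn12, the leading claudin of YHSCs, stood at 6.19 and 8.30 CPM in CMPs, 6.42 and 6.96 CPM in GMPs and 1.3 and 0.962 CPM in MEPs.

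Further genes were called against CMPs. In MEPs against CMPs, Itgb7 (-1.80), Itga9 (-4.37), Itga2 (-5.40), Itgax (-3.12), Itgb4 (-1.75) and Cdh24 (-3.53) were lower, all given as log2 fold changes, and Itgb6, Cdh23 and Itga8, with no read in MEPs, were at least 15.7-fold, 12.4-fold and 6.54-fold lower. In GMPs against CMPs, Itgb7 fell from 45.8 and 52.3 CPM to 8.73 and 10.4 CPM (-2.14, SE 0.13, adjusted p = 8.13e-08), and Itga6, Itga9, Itga2, Itgax and Cldn10 were also lower. Itga6 in that comparison lay at the fold threshold (log2 fold change -0.59) and fell under it without CMP library 2 (-0.58) or GMP library 1 (-0.50), with adjusted p values of 3.19e-04 and 4.07e-04. Itgax lost its call without CMP library 2 or either GMP library (adjusted p = 0.155, 0.0750 and 0.0564).

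The fixed lists were counted beside the same shares of all genes, 17.5% higher and 29.2% lower in MEPs than in CMPs. Against CMPs, 6 integrin partners were higher and 17 lower of 32 tested, among them Tln1, the adaptor that activates integrins (log2 fold change -1.3), and Cd82, a tetraspanin (3.37). Of 19 integrin ligands 1 was higher, the erythroid adhesion gene Icam4 (0.79), and 14 were lower. Of 17 catenins and cadherin partners 2 were higher and 7 lower, and of 16 tight junction partners 4 were higher, with Tjp1 at 2.63, and 10 lower, with the junctional adhesion molecule F11r at -7.25. In GMPs against CMPs, beside 6.24% and 10.5% of all genes, the partners had 2 higher and 5 lower, the ligands 1 and 6, the catenins 0 and 7 and the tight junction partners 1 and 8.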

How the data were processed

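RNA-seq was measured in 4 young and 8 old HSC libraries, 12 shRNA libraries and 6 progenitor libraries. Raw gene counts were deposited by the authors, made with cutadapt, STAR and featureCounts on mm10 per the submitters' processing notes. The histone signal was deposited per peak, with peaks called by MACS for H3K27ac and H3K4me3 and taken from IDEAS chromatin states for H3K27me3 in the study's methods, and the study's methods scale libraries to a common number of reads and average them in bins along the genome. Deposited columns of the authors' own ratios, and 4 histone columns with no listed sample, were not used.

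Spike-in rows were left out. Counts were tested with edgeR 4.0.16 (R 4.3.3; TMM, filterByExpr, robust quasi-likelihood, Benjamini-Hochberg over all genes), with DESeq2 1.42.0 and limma 3.58.1 as alternatives. The age and progenitor calls needed a change of more than 1.5-fold with an adjusted p under 0.05, and the knockdown calls used the unadjusted p as in the study. H3K27ac was called by the ratio rule given above. The tests were checked on simulated data with 200 changed genes. The gene positions, exon lengths and overlaps came from the GENCODE annotation of mm10, and the promoters from RefSeq. Intervals and floors (3 counts over a group, 95% intervals) cover counting error only.

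The genes named were those called in a comparison (at most 10 in each direction), the 10 highest per kb in YHSCs, a fixed list of leukocyte and stem cell adhesion chains and those with a called H3K27ac peak. The members and lists were chosen with earlier results of these data known. Alternatives were another fold threshold, DESeq2, no filter, each shRNA alone, a replicate block and leaving out each library. The labels do not tie replicate numbers across groups.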

Additional observations from a re-analysis of the deposited data

Results flagged for a closer look

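For the 41 genes named, the 4 YHSC and the 8 OHSC libraries were checked for a library far from the rest by Dixon's criterion. Of 82 groups checked, 5 held such a library, and chance gives about 1 in 20. Cdh13 was at 1.90 CPM in YHSC library 2, against 0.691 to 0.871 CPM in the others. Cdh20 was at 0.276 CPM in YHSC library 3, against 0.147 to 0.167 CPM. Itga4 was at 184 CPM in YHSC library 3, below the others at 199 to 200.5 CPM and above all OHSC libraries. Cdh22 was at 4.69 CPM in OHSC library 7, against 2.01 to 3.08 CPM in the other OHSC libraries, and all 8 stood above the YHSC libraries. Itgad, an alpha chain that pairs with beta 2, was at 6.05 CPM in OHSC library 3, against 0.487 to 1.92 CPM.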

How the results depend on the processing

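Over 94 results, 1035 values were recomputed under the alternatives, and 956 were labelled the same. For a gene's fold change this meant the same direction and a kept call, and for a count a value within 1.5 times the main count. For an H3K27ac ratio it meant a shift of less than 1 SD of the library pairs. Of the fold changes and ratios 0 reversed, whereas a count could not reverse. Genes that an alternative did not test were left out. With a fold change above 2, the age comparison had 2 genes higher, and cultured OHSCs had 1 higher and 1 lower at an unadjusted p and 1 and 0 at an adjusted p. Without the filter on low counts, 7 genes were lower with age, cultured OHSCs had 4 higher at an unadjusted p and 2 lower at an adjusted p, and transplanted OHSCs had 1 higher. With a fold change above 1.2, transplanted OHSCs had 1 lower. With shRNA1 alone, cultured OHSCs had 1 higher at an adjusted p and transplanted OHSCs 3 lower, and with shRNA2 alone transplanted OHSCs had 1 higher. Leaving out single libraries gave 1 to 4 higher and 1 to 2 lower in culture at an unadjusted p, and 0 to 2 higher and 0 to 1 lower at an adjusted p; controls 1 and 2 and both shRNA2 libraries decided these. After transplantation it gave 0 to 3 higher and 0 to 1 lower, decided by both controls and shRNA1 library 2. H3K27ac had 5 higher and 2 lower peaks at a ratio above 2, 2 and 1 with limma, and 10 to 21 and 5 to 12 without single libraries, with 21 and 5 without YHSC library 1. With a signal of at least 1, 7 genes had both promoter marks, 33 H3K4me3 alone and 1 H3K27me3 alone, and on single libraries, an alternative chosen after seeing the data, 7 to 8, 32 to 33 and 1 to 3. The states come from listed peaks, so leaving out a library changes them only with such a minimum. The cause of these shifts was not tested beyond the fewer libraries and stricter thresholds themselves. Itgb7 in culture was under the fold threshold with shRNA1 alone (0.49) and without shRNA2 library 1 (0.55). Same-numbered libraries deviated from their group means with correlations of -0.226 to 0.0582, so the numbers are not taken as pairs. With the replicate block the age calls were 4 and 4, the cultured calls 3 and 2, the transplanted calls 0 and 0, and MEP against GMP 5 and 16, the Cldn20 call being lost. Depth limits genes below about 1 CPM, where 3 counts over a group correspond to 0.0162 to 0.0437 CPM.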
